A study of Homo sapiens with 6 samples.

Results

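Imprinted genes were described in the established human embryonic stem cell line H1 on 2 laminin coatings. The list held 40 genes known or reported to be imprinted in human tissues, grouped by the chromosomal locus they share. For 7 of them the imprint depends on isoform or tissue. Of the 40, 39 were matched by symbol to a gene ID among the 60499 in the deposited count table. HYMAI was not matched, and its expression is not analysed here. Total RNA came from 3 wells on laminin-521 alone (LN-521) and 3 wells coated with laminin-521 plus laminin-221 (LN-521+LN-221). All 6 wells held unmodified H1 cells kept in the same stem cell medium for 4 days, with no other treatment. The labels name the wells as biological replicates of 1 cell line, so p-values measure the spread between these wells and do not extend to other lines. The proportion of laminin-221 in the mixture is not given in the sources used here.

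An imprinted gene is expressed mainly from the copy inherited from the mother or mainly from the copy inherited from the father. The choice is set by DNA methylation laid down in the egg or the sperm at imprinting control regions, and it is kept through the cell divisions of the embryo by proteins that hold the methylation in place. Many loci pair a protein-coding gene with a long non-coding RNA from the opposite parental copy. Imprinted genes are known for roles in fetal growth, the placenta and the brain, and embryonic stem cell lines are known to lose or gain imprints in culture. The tables used here sum the reads of both copies, so they show how much RNA each gene gave and not from which parental copy it came. In bulk samples, fewer expressing cells and less RNA per cell cannot be told apart.

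Total counts ranged from 20606450 to 26836686 per library. The cells matched their label. The 6 pluripotency markers (POU5F1, SOX2, NANOG, LIN28A, DNMT3B and TDGF1) summed to between 2189 and 2549 TPM in every well. Within that list edgeR called LIN28A higher on LN-521+LN-221 (log2 fold change 0.23, adjusted p = 0.00737) and POU5F1, NANOG and TDGF1 lower (-0.36, -0.73 and -0.65, with adjusted p = 0.00366, 0.000165 and 8.23e-06). Of the 32 cell type markers in all, 12 were tested and 5 were called, and their part in the results below was not tested. TPM is the authors' count per transcript length, set to 1 common total in all wells. Markers of endoderm, mesoderm, neuroectoderm and cardiomyocytes were low. The 4 endoderm markers summed to at most 0.17 TPM and the 4 mesoderm markers to at most 1.01. The 4 neuroectoderm markers summed to at most 1.96 TPM and the 4 cardiomyocyte markers to at most 2.19. The trophoblast sum of 11.6 to 14.4 TPM came almost wholly from KRT7, at 11.1 to 13.8, with CGA at 0 or 1 count. The 4 fibroblast markers summed to between 76.8 and 96.8 TPM, from COL1A1 and COL1A2, while LUM was at 0 in every well and DCN had at most 9 counts. Over all 17608 genes tested, 446 differed between the coatings.

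The SNRPN domain on chromosome 15, the locus lost in Prader-Willi and Angelman syndromes, gave the most RNA of any locus on the list. The stretches upstream of 3 of its start sites are shown here because these genes lie in 1 imprinted domain and are described side by side below. They are RefSeq windows of up to 250 bases before the start site (GRCh38.p14), trimmed where GENCODE 29 places an exon of the gene. MAGEL2 is at chr15:23647868-23648117 on the minus strand, NDN at chr15:23687331-23687555 on the minus strand, and SNURF, whose start site is also a start site of SNRPN, at chr15:24954737-24954985 on the plus strand. Capitals mark CpG, the dinucleotide that carries DNA methylation.

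MAGEL2: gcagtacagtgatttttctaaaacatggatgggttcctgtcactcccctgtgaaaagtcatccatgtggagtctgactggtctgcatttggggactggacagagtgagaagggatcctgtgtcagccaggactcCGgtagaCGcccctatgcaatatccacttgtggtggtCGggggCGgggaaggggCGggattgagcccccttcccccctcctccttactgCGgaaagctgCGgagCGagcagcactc
NDN: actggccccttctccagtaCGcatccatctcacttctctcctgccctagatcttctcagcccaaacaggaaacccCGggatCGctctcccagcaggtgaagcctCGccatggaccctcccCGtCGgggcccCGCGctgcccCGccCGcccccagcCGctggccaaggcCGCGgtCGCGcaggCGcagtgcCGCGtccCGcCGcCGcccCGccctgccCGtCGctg
SNURF: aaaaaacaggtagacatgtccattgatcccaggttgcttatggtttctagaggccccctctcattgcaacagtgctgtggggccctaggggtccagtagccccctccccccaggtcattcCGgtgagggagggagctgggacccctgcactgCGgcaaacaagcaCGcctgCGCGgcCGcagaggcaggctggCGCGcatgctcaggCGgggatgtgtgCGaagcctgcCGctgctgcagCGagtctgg

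The MAGEL2 stretch held 8 CpG, the SNURF stretch 12 and the NDN stretch 24. The motif TGCCGC, searched on both strands, is bound by the imprint-keeping protein ZFP57 when it is methylated. It occurred 2 times in the SNURF stretch, starting at bases 152 and 227 of the printed sequence, and 1 time in the NDN stretch, at base 188. No match was present in the MAGEL2 stretch. Among all 34943 windows of 250 bases in the RefSeq table, 12.7% held the motif, against 27.8% of the 54 windows of the 26 listed genes that the table holds, HYMAI included. The motif itself contains a CpG, and the windows of the listed genes held a median of 15 CpG against 11 over all windows. Windows of 1 gene can overlap: 3 of the 15 windows with the motif are overlapping MEG3 windows that hold the same site. NNAT, DLK1, KCNQ1OT1, SLC22A18, IGF2, PEG3, KCNQ1, CDKN1C, MEG8, GNAS-AS1, ZIM2, PEG10, SGCE and PHLDA2 had no entry.

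The levels of the listed genes spanned the range from silence to the top of the transcriptome. A gene was called silent when no library held 10 counts or more. Of the 39 matched genes, 7 were silent: PEG3 and ZIM2, MEG8 and RTL1, MKRN3, MESTIT1 and DIRAS3. The other 32 passed the filter on low counts and were tested. By mean TPM over the 6 wells, 3 genes exceeded 100, 13 lay between 10 and 100, 11 between 1 and 10, and 12 under 1. The median was 9.69 TPM over the listed genes tested and 6.04 over all genes tested. SNRPN, SNHG14 and GNAS together held between 69.1% and 70.9% of the TPM of all listed genes, and this share overlapped between the coatings. The 7 genes of the SNRPN domain held 57.9%, 56.4% and 57.9% on LN-521 and 55%, 54.3% and 55.3% on the mixture, without overlap and with no test.

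**Figure D1:**
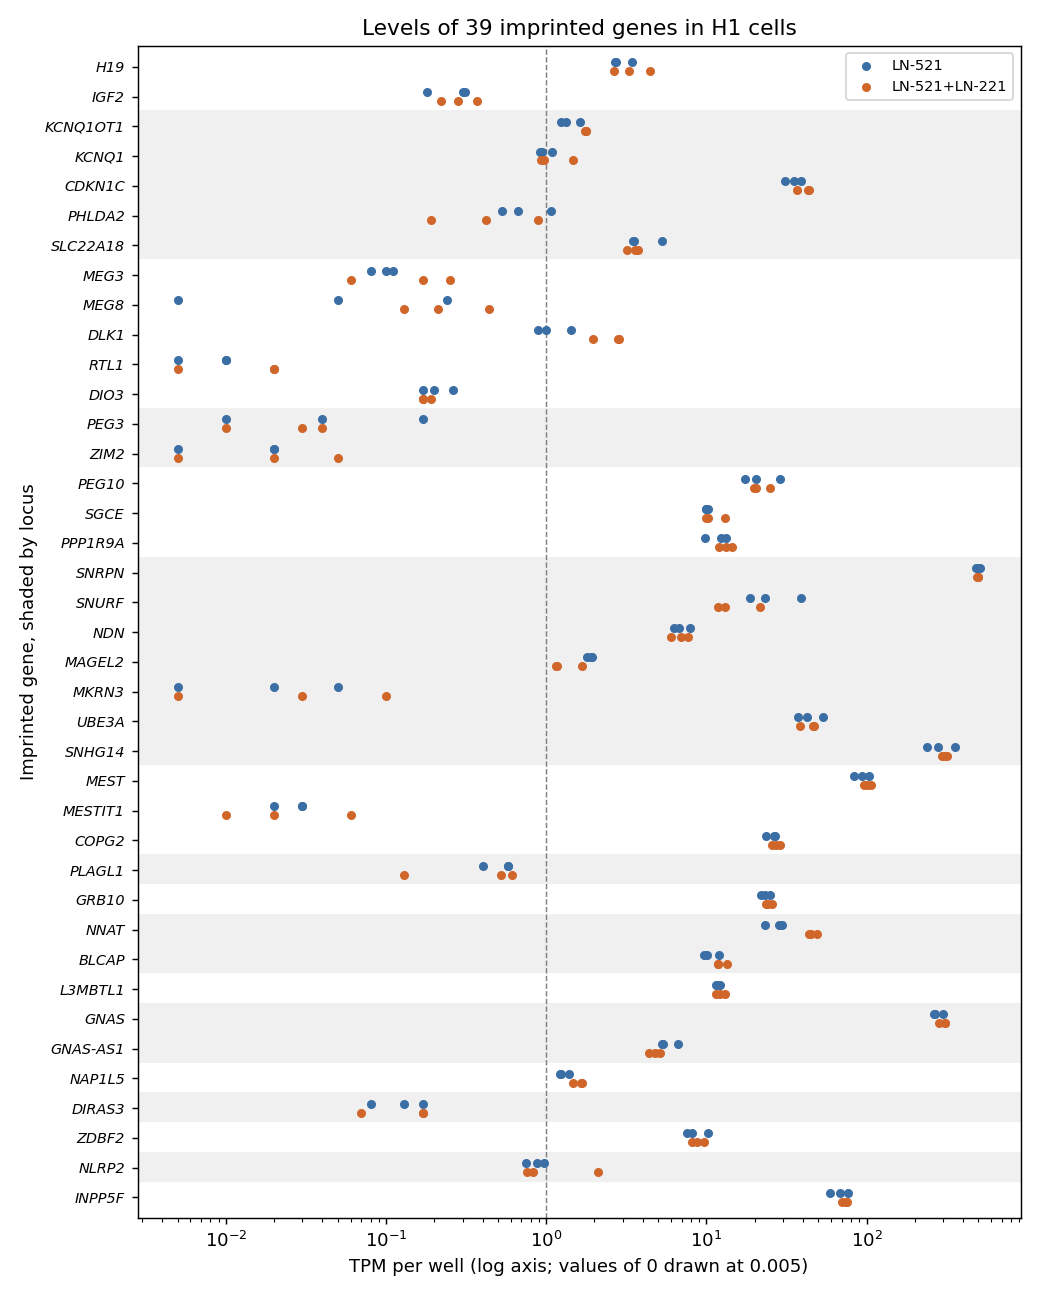
TPM of 39 imprinted genes in each of the 6 wells on a log axis, with genes shaded by locus, LN-521 wells in blue and LN-521+LN-221 wells in orange; the dashed line marks 1 TPM. SNRPN, SNHG14 and GNAS sit above 100 TPM, and PEG3, ZIM2, RTL1, MKRN3 and MESTIT1 stay below 1 TPM in every well.

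Between the coatings, 4 of the 32 genes tested passed an adjusted p-value of 0.05 in the quasi-likelihood test of edgeR, with Benjamini-Hochberg adjustment over all genes. NNAT, DLK1 and KCNQ1OT1 rose on LN-521+LN-221 and MAGEL2 fell. That is 12.5% of the listed genes tested, where 2.53% of all genes were called (1.4% higher and 1.14% lower). CPM, the counts scaled to library size, did not overlap between the coatings for 11 of the 32, 8 higher and 3 lower, where the same held for 19.9% of all genes. The unadjusted p-value was under 0.05 for 7 of the 32, against 14.5% of all genes. The median log2 fold change of the 32 was 0.05, beside a median of -0.00 over all genes, with 18 positive and 14 negative values, where 49.7% of all genes had a positive one. The median absolute log2 fold change was 0.18 over the 32 and 0.11 over all genes.

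The 4 genes lie in 4 different loci, and each is known to be expressed from the paternal copy. Of the 25 paternally expressed genes on the list, 18 were tested and edgeR called 4, where it called 2.53% of all genes. The median log2 fold change of the 18 was 0.02. DESeq2, which called 3.86% of the 13200 genes it gave an adjusted p-value, called the same 4. On log2(TPM + 1) and log2(TPM + 0.1) limma called 0 of 15, where it called 0.229% and 0.111% of all genes it tested. Of the 8 maternally expressed genes, 7 were tested. By edgeR 0 were called and 1 had an unadjusted p-value under 0.05, beside 2.53% and 14.5% of all genes. DESeq2 also called 0, but gave no adjusted p-value for PHLDA2, MEG3 and NLRP2. On either TPM scale limma called 0 of the 3 it tested. CDKN1C, a maternally expressed gene, was called by edgeR with a GC correction (adjusted p = 0.0421) and without LN-521 replicate 2 (adjusted p = 0.0265). The median of the 7 was -0.09. Among the 7 genes whose imprint depends on isoform or tissue, edgeR called 0, 1 had an unadjusted p-value under 0.05, and DESeq2 called PPP1R9A. Whether the paternally and maternally expressed genes differed in their response was not tested.

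**Figure D2:**
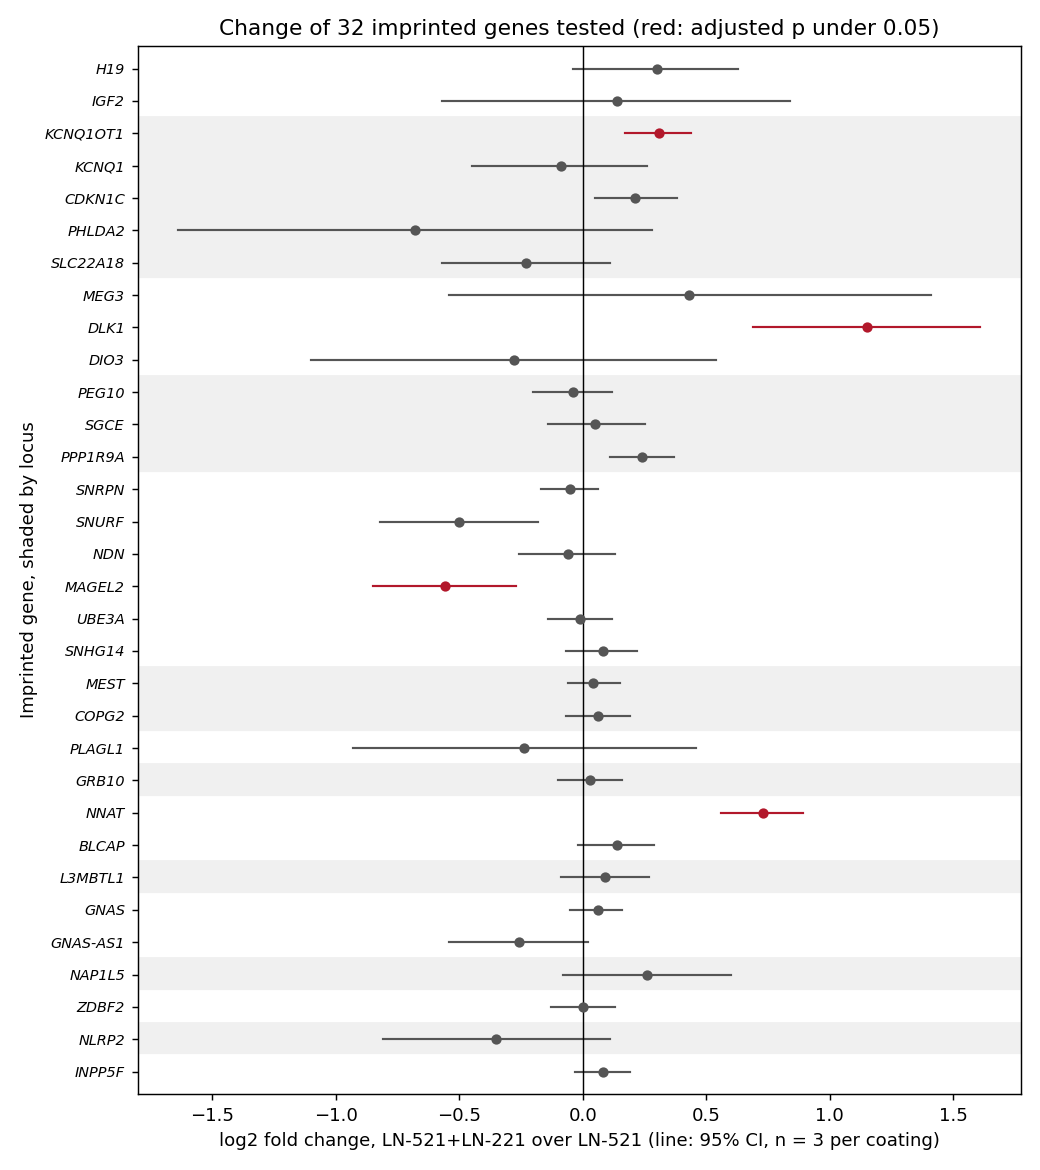
Log2 fold change of LN-521+LN-221 over LN-521 for the 32 imprinted genes tested, with 95% confidence intervals (n = 3 wells per coating), shaded by locus; red marks an adjusted p-value under 0.05. NNAT, DLK1 and KCNQ1OT1 lie right of 0 and MAGEL2 left of it, while abundant genes such as SNRPN, GNAS and UBE3A have narrow intervals that include 0.

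NNAT encodes neuronatin, a small membrane protein of developing neurons and endocrine cells. The gene (ENSG00000053438, chromosome 20, 37521206 to 37523693, plus strand) sits inside BLCAP, which runs on the opposite strand. NNAT was at 37.9, 42.4 and 32.9 CPM on LN-521 and at 63.6, 61.7 and 62.0 CPM on LN-521+LN-221. Every well with laminin-221 was above every well without it, and the 3 wells on the mixture lay close together. The mean rose from 37.7 ± 4.75 to 62.4 ± 1.01 CPM (SD, n = 3 each). The log2 fold change was 0.73 ± 0.08 (SE; edgeR adjusted p = 3.68e-05), or 1.65-fold. The increase passed the threshold in all 6 fits that left out a library and in 7 of 9 other settings, and did not pass on log2(TPM + 1) or log2(TPM + 0.1) (limma adjusted p = 0.062 and 0.117).

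BLCAP, a protein known as an inducer of apoptosis, is the host gene of NNAT. It was at 26.1, 25.9 and 24.8 CPM on LN-521 and at 28.7, 27.8 and 28.1 CPM on LN-521+LN-221. The groups did not overlap, but the change of 0.14 (95% confidence interval -0.02 to 0.29) did not pass the test (edgeR adjusted p = 0.413). The ratio of NNAT to BLCAP in TPM, which is free of library scaling, was 2.48, 2.93 and 2.31 on LN-521 against 3.63, 3.80 and 3.70 on LN-521+LN-221. These ratios did not overlap either. The exons of the pair share 85 bases on opposite strands, 6.38% of the exon length of NNAT, so reads from that stretch could be exchanged if counting ignored strand. Among 3 genes beside the pair (CTNNBL1, TTI1 and RPRD1B) edgeR called 0, and 1 had an unadjusted p-value under 0.05. Over all genes these shares were 2.53% and 14.5%, so 3 genes are too few to differ from them. DESeq2 and limma also called 0 of the 3.

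Since NNAT is known from neural tissue, markers of that tissue are given beside it. The 4 neuroectoderm markers summed to between 1.43 and 1.96 TPM on LN-521 against between 1.16 and 1.61 TPM on LN-521+LN-221. Of these, SOX1 had at most 9 counts and NEUROG2 at most 7. PAX6, a factor of early neural tissue, had 6 to 18 counts and changed by 0.39 (interval -0.57 to 1.34; edgeR adjusted p = 0.766). DCX, a protein of migrating neurons, fell (log2 fold change -0.43 ± 0.11 SE; edgeR adjusted p = 0.0492). The part of such cells in the NNAT result was not tested.

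The DLK1-MEG3 domain on chromosome 14 pairs paternally expressed protein genes with maternally expressed non-coding RNAs. DLK1 (ENSG00000185559, 100725705 to 100738224, plus strand) encodes a membrane protein related to the Notch ligands that is known to hold back fat cell differentiation. It was at 1.39, 2.74 and 1.93 CPM on LN-521 and at 4.53, 3.72 and 5.32 CPM on LN-521+LN-221. All 3 wells on the mixture were above the highest LN-521 well, though the wells of each coating were spread widely. The mean was 2.02 ± 0.680 and 4.52 ± 0.800 CPM (SD, n = 3 each). On the log2 scale the rise of 1.15 ± 0.22 (SE; edgeR adjusted p = 0.00663), or 2.22-fold, was the highest on the list. DLK1 rested on 32 to 126 counts per library. Without LN-521 replicate 3 the adjusted p was 0.0544, and without LN-521+LN-221 replicate 3 it was 0.0632 (edgeR). DLK1 also did not pass on log2(TPM + 1) or log2(TPM + 0.1) (limma adjusted p = 0.126 and 0.184).

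The other genes of this domain were at the floor of the assay. MEG3, a long non-coding RNA known to be silenced in some pluripotent cell lines, had 14, 11 and 9 counts on LN-521 against 23, 11 and 7 on LN-521+LN-221. The coatings overlapped, and the change of 0.43 had an interval of -0.54 to 1.41, so a difference as large as that of DLK1 could not be told from no difference (edgeR adjusted p = 0.735). MEG8, the next non-coding RNA along the chromosome, had 0 to 4 counts and RTL1, a protein derived from a retrotransposon, 0 to 2. DIO3, the deiodinase that inactivates thyroid hormone, had 9 to 16 counts. Its CPM did not overlap between the coatings (0.436, 0.451 and 0.642 against 0.433, 0.404 and 0.422), and its interval was -1.10 to 0.54. DLK1 was thus the most abundant gene of its domain, at 0.89 to 2.84 TPM, where MEG3 was at 0.06 to 0.25 TPM. The ratio of DLK1 to MEG3 in TPM was 8.09 to 17.8 on LN-521 against 11.2 to 47.3 on LN-521+LN-221, which overlapped. Beside the domain, edgeR called 0 of BEGAIN, WDR25, WARS1 and PPP2R5C, with 0 at an unadjusted p-value under 0.05. Over all genes these shares were 2.53% and 14.5%, so 4 genes are too few to differ from them. DESeq2 called 0 of the 4 and limma 0 of the 3 it tested.

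Chromosome 11 carries 2 neighbouring imprinted domains. KCNQ1OT1 (ENSG00000269821, 2608328 to 2699994, minus strand) is a long nuclear RNA read from the paternal copy, antisense to KCNQ1, which is known to silence its neighbours on that copy. It was at 171, 166 and 147 CPM on LN-521 and at 192, 197 and 209 CPM on LN-521+LN-221. The coatings did not overlap. The mean rose from 161 ± 12.8 to 199.5 ± 8.65 CPM (SD, n = 3 each). On the log2 scale KCNQ1OT1 rose by 0.31 ± 0.06 (SE; edgeR adjusted p = 0.0101), or 1.24-fold. As its exon spans 91667 bases, 3661 to 4950 counts per library gave 1.24 to 1.78 TPM. The adjusted p was 0.0974 without LN-521 replicate 3, and 0.0659 and 0.105 without LN-521+LN-221 replicates 2 and 3 (edgeR). KCNQ1OT1 also did not pass on log2(TPM + 1) or log2(TPM + 0.1) (limma adjusted p = 0.649 and 0.531).

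The maternally expressed neighbours of KCNQ1OT1 did not pass the test. CDKN1C, the cyclin-dependent kinase inhibitor p57, was at 54.5, 58.4 and 47.2 CPM on LN-521 and at 61.1, 65.7 and 58.7 CPM on LN-521+LN-221. The groups did not overlap, and the change was 0.21 with an interval of 0.05 to 0.38 (edgeR adjusted p = 0.192). Leaving out LN-521 replicate 2 gave 0.29 with an edgeR adjusted p of 0.0265. CDKN1C and KCNQ1OT1 had estimates of the same sign. The ratio of KCNQ1OT1 to CDKN1C in TPM was 0.0375 to 0.0418 on LN-521 against 0.0399 to 0.0486 on LN-521+LN-221, which overlapped. KCNQ1, a potassium channel subunit, changed by -0.09 (interval -0.45 to 0.26) and SLC22A18, a membrane transporter, by -0.23 (-0.57 to 0.11). PHLDA2, which restrains placental growth, had 4 to 27 counts per library, and its interval of -1.64 to 0.28 leaves its direction unsettled.

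KCNQ1OT1 and KCNQ1 share 121 exon bases on opposite strands, 0.132% of the exon length of KCNQ1OT1. KCNQ1OT1 also lies across introns of KCNQ1, whose unspliced RNA would be read there from the other strand. The ratio of KCNQ1OT1 to KCNQ1 in TPM was 1.22 to 1.79 on LN-521 against 1.18 to 1.91 on LN-521+LN-221, and it overlapped. Whether counting used the strand is not given in the sources used here.

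Among the genes beside the KCNQ1OT1 domain, CD81, a cell surface tetraspanin, fell from 64.5, 78.2 and 73.8 CPM to 56.5, 58.8 and 61.7 CPM. Its wells did not overlap. The log2 fold change was -0.29 ± 0.07 (SE; edgeR adjusted p = 0.0404), and the call was lost in 5 of the 6 fits that left out a library. TSSC4, NAP1L4 and CARS1 did not pass. CD81 was the only gene called among the 51 tested of 60 genes beside the loci, a share of 1.96% against 2.53% of all genes.

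At the H19-IGF2 domain, H19 is a maternally expressed non-coding RNA and IGF2 a paternally expressed fetal growth factor. H19 was at 3.83, 3.65 and 2.97 CPM on LN-521 and at 4.05, 4.26 and 4.52 CPM on LN-521+LN-221. The wells did not overlap, but the change of 0.30 (interval -0.04 to 0.63) did not pass the test (edgeR adjusted p = 0.414). IGF2 had 15, 29 and 38 counts on LN-521 against 28, 34 and 18 on LN-521+LN-221, which overlapped. Its counts were not whole in 5 libraries, so part of its reads had been divided between genes. Per length, H19 was above IGF2 in every well, by 7.16 to 15.8 times in TPM. IGF2R, the receptor that clears IGF2 and was on a list of 40 other imprinted genes, was at 174, 179 and 179.8 CPM on LN-521 and at 187, 203 and 208 CPM on LN-521+LN-221. Its change of 0.17 (interval 0.05 to 0.28) did not pass (edgeR adjusted p = 0.143).

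The SNRPN domain held the most abundant genes of the list and the call that went down. SNRPN, which encodes the spliceosome protein SmN, was at 783, 878 and 848 CPM on LN-521 and at 778, 813 and 825 CPM on LN-521+LN-221. The wells overlapped, and the interval of -0.17 to 0.06 bounds any change to a small one (edgeR adjusted p = 0.706). SNHG14, the long transcript that carries the small nucleolar RNAs of the domain, was at 1128, 905 and 934 CPM on LN-521 and at 1044, 1026 and 1060 CPM on LN-521+LN-221, which also overlapped. In each of the 6 libraries the SNHG14 count was not whole, and in 5 the SNRPN count was not. Part of the reads of both had thus been divided between genes. LN-521 replicate 1 was the highest well, and without it SNHG14 changed by 0.18 in place of 0.08 (edgeR adjusted p = 0.012 in place of 0.668). UBE3A, the ubiquitin ligase of Angelman syndrome that lies at the far end of SNHG14, was at 178, 152 and 159 CPM against 164, 169 and 153 CPM, with an interval of -0.14 to 0.12. In TPM the order was SNRPN at 485 to 514, SNHG14 at 239.9 to 359 and UBE3A at 37.1 to 53.2.

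MAGEL2 (ENSG00000254585, chromosome 15, 23643549 to 23647867, minus strand) encodes a MAGE family protein that helps a ubiquitin ligase act on endosomes. It was at 8.49, 10.7 and 10.3 CPM on LN-521 and at 8.09, 5.92 and 6.08 CPM on LN-521+LN-221. The groups did not overlap, but LN-521 replicate 1 and LN-521+LN-221 replicate 1 were close. The mean fell from 9.82 ± 1.16 to 6.70 ± 1.21 CPM (SD, n = 3 each). The log2 fold change was -0.56 ± 0.14 (SE; edgeR adjusted p = 0.0370), or 0.679-fold. The call was lost in 4 of the 6 fits that left out a library, with edgeR adjusted p-values of 0.0783 and 0.180 without LN-521 replicates 2 and 3 and of 0.241 and 0.203 without LN-521+LN-221 replicates 2 and 3. MAGEL2 also did not pass on log2(TPM + 1) or log2(TPM + 0.1) (limma adjusted p = 0.482 and 0.44).

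NDN, which encodes necdin, a growth suppressor of the same MAGE family, is the neighbour of MAGEL2. It was at 15.9, 15.1 and 15.4 CPM on LN-521 and at 15.8, 15 and 13.6 CPM on LN-521+LN-221. The wells overlapped, and the interval of the change was -0.26 to 0.13 (edgeR adjusted p = 0.812). The ratio of MAGEL2 to NDN in TPM was 0.228, 0.3 and 0.284 on LN-521 against 0.218, 0.167 and 0.191 on LN-521+LN-221, without overlap. These are the 2 genes with the CpG-poor and the CpG-rich upstream stretch printed above, and a link between the stretches and the values was not tested. MKRN3, a ring finger protein that delays puberty and the third protein gene of this end of the domain, had 0 to 6 counts.

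SNURF is a short protein read from the upstream part of the SNRPN transcript. Its CPM were 14.1, 9.10 and 9.87 on LN-521 against 8.62, 7.31 and 7.39 on LN-521+LN-221, without overlap, and the change of -0.50 (interval -0.82 to -0.18) missed the threshold (edgeR adjusted p = 0.0974). The edgeR adjusted p was 0.00218 without the filter on low counts, 0.0101 with the replicate number as a block and 0.015 without LN-521 replicate 2. Without LN-521 replicate 1, the highest well, the change was -0.29 (edgeR adjusted p = 0.177). SNURF shares 69.3% of its exon bases with SNRPN on the same strand, and its counts were not whole in all 6 libraries, so its value depends on how reads were divided between the pair. It took 1.03% to 1.77% of the counts of the pair on LN-521 against 0.888% to 1.10% on LN-521+LN-221. The summed CPM of the pair were 797 to 887 and 787 to 833, which overlapped.

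**Figure D3:**
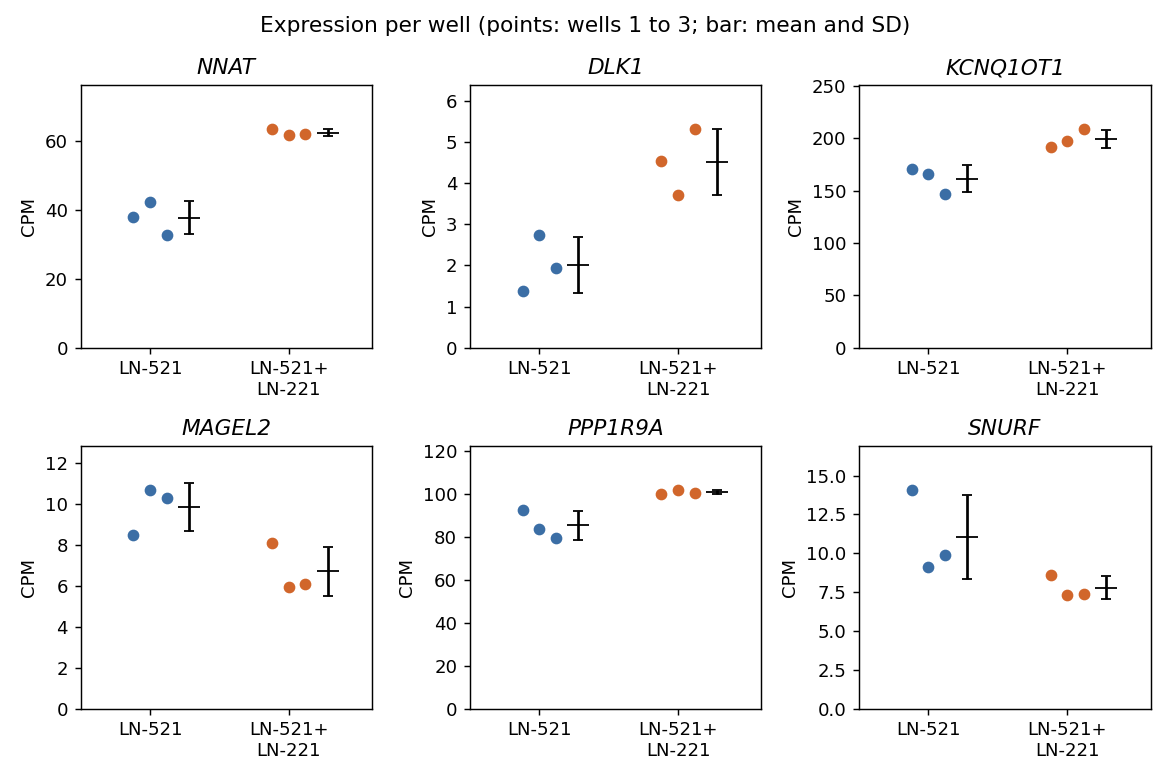
CPM in each well for the 4 imprinted genes called and for PPP1R9A and SNURF, which did not overlap but missed the threshold; points are wells and bars the mean and SD of 3. NNAT wells lie at 32.9 to 42.4 on LN-521 and at 61.7 to 63.6 on LN-521+LN-221, while the 2 replicate 1 wells of MAGEL2, at 8.49 and 8.09, nearly meet.

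At the PEG10 domain on chromosome 7, PEG10 is a retrotransposon-derived gene needed for the placenta, and SGCE encodes epsilon-sarcoglycan, the protein of myoclonus dystonia. Their start regions face away from each other across a shared control region. PEG10 was at 157, 127 and 133 CPM on LN-521 and at 145, 131 and 128 CPM on LN-521+LN-221. SGCE was at 17.2, 17.3 and 16.6 CPM against 16.3, 19.4 and 17.4 CPM. Neither separated the coatings, with intervals of -0.20 to 0.12 for PEG10 and -0.14 to 0.25 for SGCE. PPP1R9A encodes neurabin, which ties protein phosphatase 1 to actin. It was at 92.5, 83.8 and 79.5 CPM on LN-521 and at 100.1, 102 and 100.3 CPM on LN-521+LN-221, without overlap. Its change of 0.24 (interval 0.11 to 0.37) had an edgeR adjusted p of 0.0515, just outside the threshold. It passed in 6 of the 9 other settings on all libraries: DESeq2 (adjusted p = 0.0209), and edgeR with a 1 CPM filter (0.0458), RLE size factors (0.0496), a GC correction (0.00707), no filter (0.0272) or the replicate block (0.0179). Without 1 library it passed in 2 of 6 edgeR fits (adjusted p = 0.00118 and 0.0411 without LN-521 replicates 1 and 2) and failed in the other 4, with adjusted p-values of up to 0.296. The other 3 settings were library size alone (edgeR adjusted p = 0.0766) and both TPM scales (limma adjusted p = 0.831 and 0.84), in which it failed.

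The genes tested in the MEST and GRB10 domains differed little. MEST, a hydrolase-like protein of mesoderm-derived tissues, was at 188, 185 and 179.8 CPM on LN-521 and at 187, 195 and 187 CPM on LN-521+LN-221, with an interval of -0.06 to 0.15. Its antisense RNA MESTIT1, which shares 484 exon bases with it, had 1 to 7 counts. Its other neighbour COPG2, a coat protein of Golgi vesicles, had an interval of -0.07 to 0.19. GRB10, an adaptor that dampens insulin and IGF receptor signals, was at 85.9, 93.4 and 88.7 CPM against 85.1, 91.8 and 96.9 CPM, with an interval of -0.10 to 0.16. None of these genes separated the coatings.

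GNAS encodes the stimulatory G protein alpha subunit and has several imprinted start sites, which a gene-level count adds together. It was at 532, 562 and 532 CPM on LN-521 and at 559, 576 and 558 CPM on LN-521+LN-221. The wells overlapped, and the interval was -0.05 to 0.16. Its antisense RNA GNAS-AS1 changed by -0.26 (interval -0.54 to 0.02) and shares 30.8% of its exon bases with GNAS on the opposite strand. ZDBF2, a zinc finger protein gene, was at 116, 103 and 104 CPM against 112, 107 and 103 CPM, with an interval of -0.13 to 0.13. INPP5F, a phosphoinositide phosphatase, was at 303, 281 and 302 CPM against 309, 319 and 310.4 CPM. Its wells did not overlap, but the change of 0.08 (interval -0.03 to 0.19) did not pass the test (edgeR adjusted p = 0.505). L3MBTL1, a chromatin-compacting protein, changed by 0.09 (interval -0.09 to 0.27).

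The remaining listed genes had low counts. PLAGL1, a zinc finger factor linked to transient neonatal diabetes, had 25, 25 and 24 counts on LN-521 against 20, 25 and 11 on LN-521+LN-221. NAP1L5, related to nucleosome assembly proteins, had 69 to 108 counts and NLRP2, an oocyte and early embryo protein, 36 to 66. Neither passed, with intervals of -0.08 to 0.60 and -0.81 to 0.11. PEG3, a zinc finger factor of maternal behaviour in mice, had 3 to 8 counts and its neighbour ZIM2 0 to 2. DIRAS3, a Ras-like growth inhibitor, had 3 to 8 counts. At these counts a change in the silent genes was not detectable.

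The factors known to keep imprints were read from a list of 22 genes, of which 21 were tested. By edgeR 0 were called, 2 had an unadjusted p-value under 0.05 (DNMT3L and DPPA3), and DESeq2 and limma also called 0. Over all genes edgeR called 2.53%, and 14.5% had an unadjusted p-value under 0.05. Their median log2 fold change was 0.05. ZFP57, which binds the methylated TGCCGC motif, was silent, with 2 to 9 counts per library. ZNF445, its partner in keeping imprints in human embryos, had 1614 to 2049 counts and changed by 0.08 (interval -0.05 to 0.20). Their shared corepressor TRIM28 was at 590.4, 740.2 and 667 CPM on LN-521 and at 604, 627 and 643 CPM on LN-521+LN-221, which overlapped. Its interval was -0.23 to 0.05, and without LN-521 replicate 1 it changed by -0.17 (edgeR adjusted p = 0.0383).

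The copying of DNA methylation at cell division needs DNMT1 and UHRF1. DNMT1 changed by -0.02 (interval -0.14 to 0.10) and UHRF1 by 0.18 (-0.02 to 0.38), and neither passed the test. Without LN-521 replicate 1, UHRF1 changed by 0.30 (edgeR adjusted p = 0.022). CTCF, the insulator protein that binds the unmethylated control region of H19 and IGF2, changed by -0.08 (-0.19 to 0.04). DPPA3, which protects maternal methylation in the zygote, was at 3.96, 3.12 and 4.37 CPM on LN-521 and at 3.08, 2.42 and 2.20 CPM on LN-521+LN-221. The wells did not overlap, and the change of -0.58 (interval -0.98 to -0.17) had an edgeR adjusted p of 0.147. In each of the 6 libraries the counts of UHRF1 and DPPA3 were not whole, so part of their reads had been divided between genes. DNMT3L, a cofactor that stimulates the enzymes laying down new methylation, had 14 to 45 counts and changed by 0.95 (interval 0.25 to 1.65; edgeR adjusted p = 0.169).

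Of the 40 other imprinted genes, 25 were tested. By edgeR 0 were called and 4 had an unadjusted p-value under 0.05, beside the same 2.53% and 14.5% of all genes, and DESeq2 and limma called 0. These 4 were IGF2R, TFPI2, GDAP1L1 and DGCR6, with log2 fold changes of 0.17, -0.47, 0.22 and -0.48. The median over the 25 was 0.01. Together with the first list, 57 genes known or reported as imprinted were therefore tested and 4 were called, a share of 7.02% beside 2.53% of all genes.

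**Figure D4:**
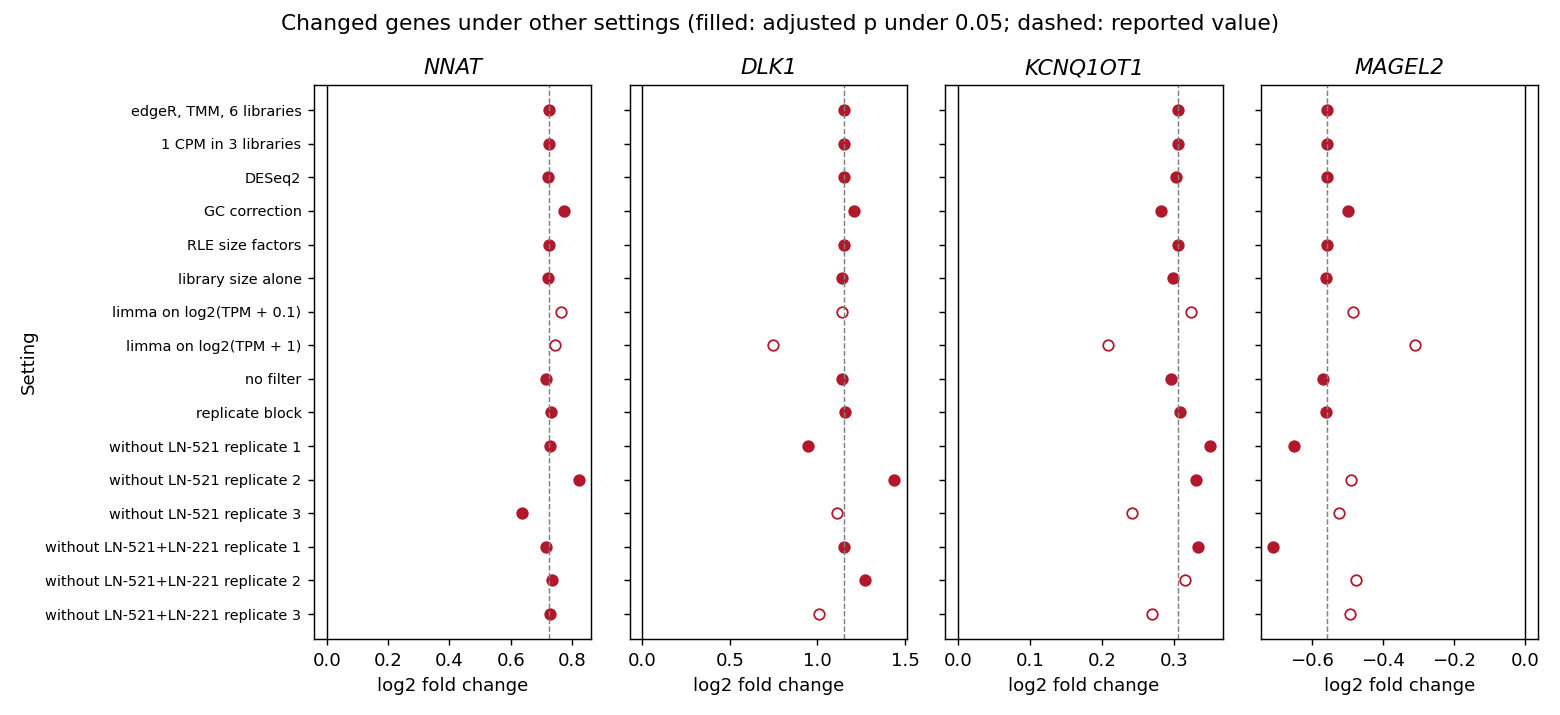
Log2 fold change of NNAT, DLK1, KCNQ1OT1 and MAGEL2 under each setting run, from edgeR on 6 libraries (top) to fits without 1 library (bottom); filled points passed an adjusted p-value of 0.05 and the dashed line is the reported value. All points of a gene lie on the same side of 0. Those on the authors' TPM values are open for all 4 genes.

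On the authors' TPM values, limma called 0 of the 25 listed genes it tested, with log2(TPM + 1) or log2(TPM + 0.1). It called 33 and 16 genes in all, or 0.229% and 0.111% of those tested, where edgeR called 446. The 4 genes kept their direction there: on log2(TPM + 1), NNAT changed by 0.74, DLK1 by 0.75, KCNQ1OT1 by 0.21 and MAGEL2 by -0.31. RNAs of the 7SL family took 30.1% to 37.3% of the TPM in the LN-521 wells and 31.1% to 32.9% in the wells on the mixture, and their part in these values was not tested.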

How the data were processed

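Per the submitters' processing notes, cutadapt, STAR 2.5.2b and RSEM 1.2.31 were used with genome build hg38. The annotation and the use of strand in counting are not given in the sources used here. The authors deposited expected counts per gene (6.08% to 6.67% of values per library not whole), rounded here, and TPM values. Libraries came from a stranded total RNA kit, per the labels' protocols. Counts were filtered (filterByExpr, minimum count 10), scaled by TMM and tested with edgeR 4.0.16 (quasi-likelihood, R 4.3.3) on 6 libraries, with Benjamini-Hochberg adjustment over 17608 genes and a threshold of 0.05. DESeq2 1.42.0, and limma 3.58.1 on TPM in genes reaching 1 TPM in 3 libraries, were alternatives. CPM use TMM-scaled library sizes. Confidence intervals are 95%. Symbols, exons and promoter windows came from GENCODE 29 and RefSeq. On simulated counts of 17339 genes, 89% of changes of 1 and 68% of changes of 0.5 on the log2 scale were recovered, and 8.19% of 171 calls were false. The changes were placed in a random subset of genes above a minimum mean count, in a single run. Recovery was not measured at counts as low as those of MEG3 or DIO3.

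The members and lists were chosen with earlier results of these data known. Statistics were given for members called or not overlapping, for set well-known members, and for called genes and set regulators of the other lists; 21 regulators, 25 other imprinted genes and 51 neighbours were tested.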

Additional observations from a re-analysis of the deposited data

How the results depend on the processing

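The number of all genes called (446) was 718 without the filter, 33 on log2(TPM + 1), 16 on log2(TPM + 0.1), 952 with a GC correction chosen after seeing the data, and 194 to 1179 without 1 library. Of the listed imprinted genes (4 called), limma called 0 on either TPM scale, fits without 1 library called 1 to 6, the GC correction 6 (adding CDKN1C and PPP1R9A) and the unfiltered fit 6 (adding PPP1R9A and SNURF). The other counts were 0 to 3 for the regulators (TET2, TRIM28 and UHRF1 without LN-521 replicate 1), 0 to 2 for the other imprinted genes and 0 to 2 for the neighbours without 1 library. With the GC correction these were 1 (DPPA3), 1 (IGF2R) and 2, and limma called 0 neighbours on both TPM scales. The cause was not tested. NNAT, DLK1, KCNQ1OT1 and MAGEL2 kept their direction in every setting run. These estimates, none of them called, changed sign without 1 library: IGF2 ranged from -0.115 to 0.45, KCNQ1 from -0.201 to 0.0611, MEG3 from -0.219 to 0.785, PEG10 from -0.104 to 0.0542, SGCE from -0.0144 to 0.109, PLAGL1 from -0.495 to 0.0661, GRB10 from -0.0154 to 0.0809 and DNMT1 from -0.0604 to 0.016. UBE3A ranged from -0.0541 to 0.057 and was 0.00122 and 0.001 on log2(TPM + 0.1) and log2(TPM + 1). ZDBF2 ranged from -0.0319 to 0.0567 and was 0.0408 and 0.0363 there.

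Wells with the same replicate number did not deviate together (correlations of 0.0473, -0.0223 and 0.00902), so the numbers do not pair them. Adding the replicate number as a block gave calls for 646 genes and 6 listed imprinted genes, adding PPP1R9A (edgeR adjusted p = 0.0179) and SNURF (edgeR adjusted p = 0.0101).

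With 3 wells of 1 line per coating, changes in genes under about 10 counts cannot be read.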
